A study of Rattus norvegicus with 9 samples.

Results

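Adenosine receptors and the enzymes and transporter that set adenosine levels were followed in ipsilateral L4–6 dorsal root ganglia (DRGs), which house the cell bodies of the sensory neurons of the hind limb. The 8 genes were chosen by their symbols, as Adora1, Adora2a, Adora2b, Adora3, Nt5e, Ada, Adk and Slc29a1, and all 8 were found among the 20413 genes of the deposited table, under the identifiers 29290, 25369, 29316, 25370, 58813, 24165, 25368 and 63997. All animals were male Sprague-Dawley rats aged 8 to 10 weeks, and RNA of 3 rats in each group was used for the libraries. The Sham group (labelled Con) was anaesthetised with a cut ring round the ankle that left blood flow intact. In the chronic post-ischemia pain (CPIP) group a tight ring closed off the hind paw for 3 h before reperfusion. The CPIP+EA group had the same injury and electroacupuncture (EA) of 100 Hz for 30 min a day at the Zusanli and Kunlun points of both hind limbs on 10 days. Each group had 3 libraries, taken on day 10, and the tests used 1 estimate of the spread per gene, pooled over the 3 groups. There was no group of uninjured rats with EA and none with needles but no current, so EA can be compared only on top of CPIP.

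Adenosine is made outside cells when released ATP is stripped of its phosphates by ectonucleotidases, the last step being the removal of the phosphate of AMP by Nt5e (ecto-5′-nucleotidase, CD73) or, on many nociceptors, by Acpp (prostatic acid phosphatase). Its receptors fall into those that couple to inhibitory G proteins (Adora1 and Adora3) and those that couple to stimulatory G proteins and raise cAMP (Adora2a and Adora2b). Slc29a1 carries adenosine across the membrane in either direction, Adk phosphorylates it back to AMP inside the cell and Ada deaminates it to inosine. Activation of the Adora1 receptor on sensory neurons dampens pain signalling, and local adenosine release at the needled point is one known route of acupuncture analgesia.

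The values are FPKM (fragments counted on a gene, divided by its transcript length and the library's mapped total), which the authors deposited with 2 decimals, and levels of different genes are compared on this per-length scale. The reads behind a value are not given with them, so the precision rests on the number of libraries. Adk had the highest level, with a mean of 55.2 FPKM over the 9 libraries, and Adora1 the next, at 23.4 FPKM. Both stood above every value of the genes below them. Slc29a1 (5.80 FPKM), Ada (4.83), Nt5e (4.74) and Adora2a (3.82) followed with ranges that overlapped from each one to the next, so their order is not fixed by these libraries. Ada, for example, exceeded Nt5e in 4 of the 9 libraries. Adora2b (1.87 FPKM) lay below Adora2a in all 9 libraries, and Adora3 (0.151 FPKM) was lowest throughout. Among the 17187 genes with a mean of at least 0.1 FPKM, the mean of Adk was above that of 90.6% of genes, that of Adora1 above 77.9% and that of Adora3 above 3.06%. The 8 genes also differed in how much they varied, from a coefficient of variation over the 9 libraries of 5.27% for Adk to 23.2% for Adora2b and 37.8% for Adora3.

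**Figure D1:**
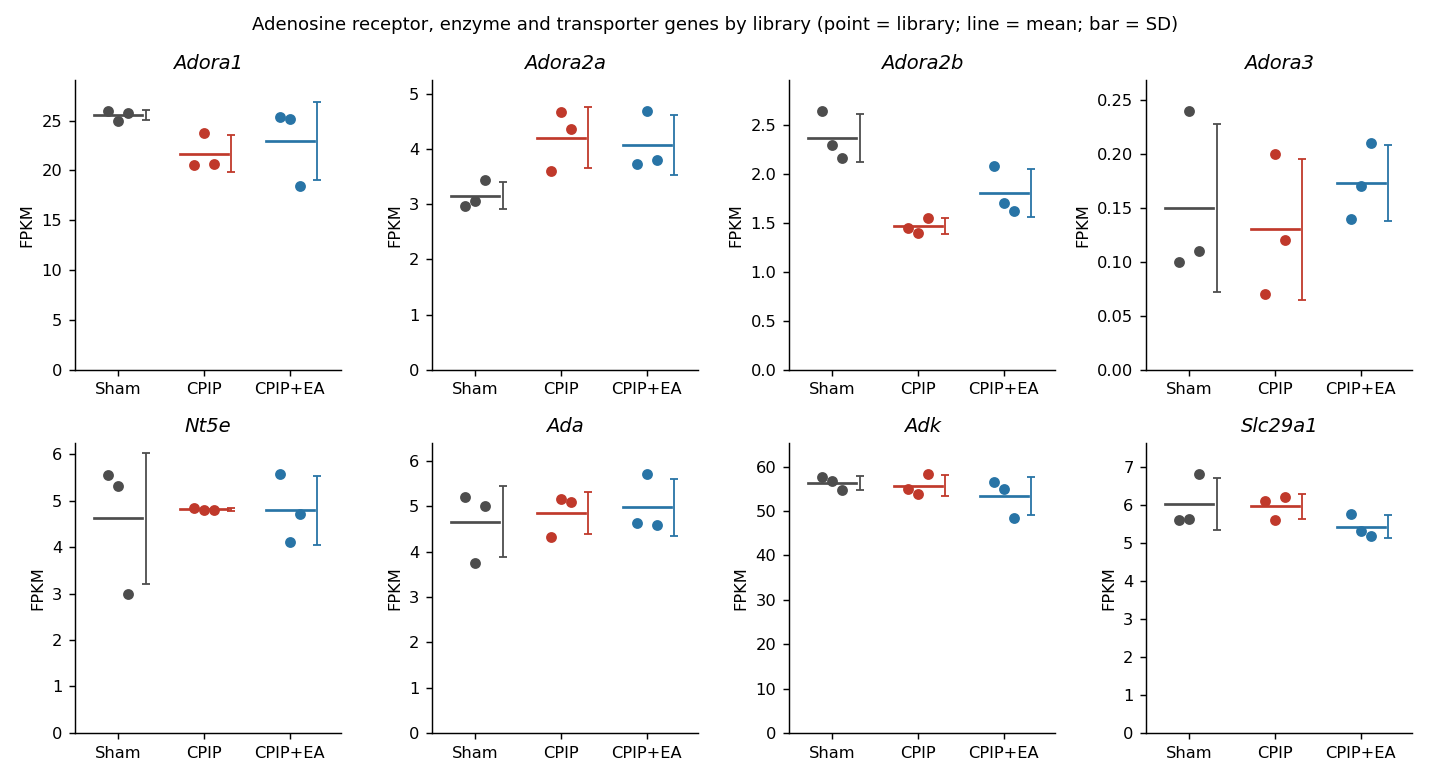
FPKM of the 8 genes in each of the 9 libraries, with the group mean as a line and the SD as a bar, on axes that start at 0. The Sham and CPIP points do not overlap for Adora1, Adora2a and Adora2b, and overlap for the other genes.

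The neuronal tissue was clear in the libraries. The summed FPKM of 10 sensory neuron markers ran from 6294 to 7146 in Sham, from 6595 to 7321 in CPIP and from 6306 to 7801 in CPIP+EA, and none of these markers was at 0 in any library. The sums of 5 satellite glia and 5 Schwann cell markers overlapped between the groups as well. Between CPIP+EA and CPIP, however, the glial markers Fabp7 (log2 fold change 0.71) and Glul (-0.21) had non-overlapping groups and an unadjusted limma p under 0.05. All 5 Schwann cell markers were at negative values there (median -0.48), 1 of them, Prx, at such a p. Blood-borne markers stood apart in CPIP+EA replicate 3, where 6 neutrophil markers summed to 535 FPKM against 27.6 to 214 in the other 8 libraries, and 5 erythroid markers to 2377 against 247 to 1435. The same library had the highest sums of 7 macrophage markers (183 FPKM, against 86.7 to 128) and of 6 lymphocyte markers (14.9 FPKM, against 2.41 to 10.5). Of the 10 neuron markers, 1 was higher and 2 were lower in CPIP than in Sham at an unadjusted limma p under 0.05, and 2 were higher and 2 lower in CPIP+EA than in Sham. The sums of 6 endothelial, 7 mast cell, 5 fibroblast and 5 mural markers overlapped between CPIP and Sham. The fibroblast markers were nevertheless all at negative log2 fold changes there (median -0.22), 1 of them, Lum (-0.465), at an unadjusted limma p under 0.05. Skeletal muscle markers (5) stood apart in CPIP replicate 2, with a sum of 110.3 FPKM against 6.85 to 34.7 in the other 8 libraries, and for CPIP over Sham their median log2 fold change was 1.31, with 0 of 5 at such a p. Fibroblast markers summed to 445 to 912 FPKM in CPIP+EA, against 795 to 1078 in Sham, and 4 of the 5 were lower there at that p. Of the 7 macrophage markers, 2 (Aif1 and C1qa) were higher in CPIP+EA than in Sham at that p, with a median log2 fold change of 0.32 over the list. At that p, 8.66% of all genes differed between CPIP and Sham, 4.29% between CPIP+EA and CPIP and 12.2% between CPIP+EA and Sham. The part of these cell types in the results was not tested.

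All 3 group pairs were tested with limma on log2(FPKM + 0.5) over all genes. A gene was called where limma's adjusted p (Benjamini-Hochberg) lay below 0.01 and the difference reached 1.5-fold in either direction. Of the 8 genes, 0 passed this threshold between CPIP and Sham, where 0.355% of all genes did, 0 between CPIP+EA and CPIP, where 0% did, and 0 between CPIP+EA and Sham, where 0.483% did. At an unadjusted limma p under 0.05 the count was 2 of 8 between CPIP and Sham (8.66% of all genes), 0 of 8 between CPIP+EA and CPIP (4.29%) and 2 of 8 between CPIP+EA and Sham (12.2%). With so few genes, shares of this size are not set apart from those over all genes. The median log2 fold change of the 8 genes was -0.013, 0.0074 and -0.012 in the 3 comparisons, against -0.0064, 0.012 and 0.0014 over all genes tested. The smallest p-values in both comparisons with Sham were those of the receptors Adora2b and Adora2a, which differed in opposite directions.

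**Figure D2:**
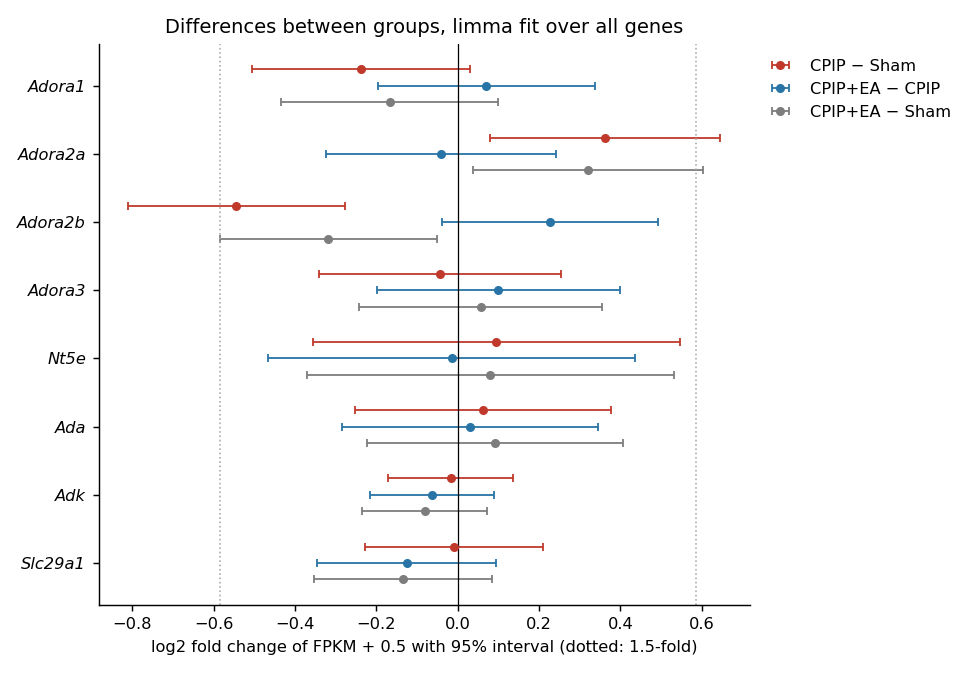
Log2 fold changes of the 8 genes in the 3 comparisons, on the log2(FPKM + 0.5) scale, as points with 95% intervals from the limma fit; dotted lines mark the 1.5-fold limits. The CPIP against Sham interval lies below 0 for Adora2b and above 0 for Adora2a, and every CPIP+EA against CPIP interval includes 0.

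Adora2b, the stimulatory receptor of low affinity, was lower in CPIP than in Sham, short of the threshold. It was at 2.64, 2.29 and 2.16 FPKM in the Sham libraries, 1.44, 1.39 and 1.55 after CPIP alone and 2.08, 1.70 and 1.62 after CPIP with EA. Every CPIP library lay below every Sham library, and the CPIP+EA libraries lay between the other two groups without touching either. The mean in CPIP was 0.618 of that in Sham. The log2 fold change was -0.54 (SE 0.12, 95% interval -0.81 to -0.28, unadjusted limma p 0.00124, limma adjusted p 0.0983). This adjusted p lay between 0.0578 and 0.312 over 20 alternative fits, and the unadjusted p was under 0.05 in all 20. For EA on top of CPIP, Adora2b had a log2 fold change of 0.23 (SE 0.12, 95% interval -0.040 to 0.49, limma adjusted p 0.996), with an adjusted p of 0.694 to 1 over the alternatives and a value of 0.14 without CPIP+EA replicate 1. Against Sham, CPIP+EA was still lower, by a log2 fold change of -0.32 (SE 0.12, 95% interval -0.58 to -0.052, limma adjusted p 0.313, 0.203 to 0.565 over the alternatives), with an unadjusted p under 0.05 in 17 of the 20.

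Adora2a, the other receptor that raises cAMP, was higher in CPIP than in Sham, also short of the threshold. Its FPKM was 2.97, 3.06 and 3.44 in the Sham libraries, 3.60, 4.67 and 4.37 after CPIP alone and 3.74, 4.70 and 3.80 after CPIP with EA. All 6 libraries of injured rats were above all 3 Sham libraries, whereas CPIP and CPIP+EA overlapped. CPIP stood against Sham at a log2 fold change of 0.36 (SE 0.13, 95% interval 0.078 to 0.64, unadjusted limma p 0.0179, limma adjusted p 0.407). That adjusted p lay between 0.33 and 0.761 over the 20 alternatives, of which 17 kept the unadjusted p under 0.05. Without CPIP replicate 2, the library with the most muscle marker signal and the highest Adora2a of its group, the value was 0.29 and its unadjusted p was above 0.05. Set against Sham, CPIP+EA had a log2 fold change of 0.32 (SE 0.13, limma adjusted p 0.337, 0.304 to 0.608 over the alternatives). EA on top of CPIP gave -0.041, with a 95% interval of -0.32 to 0.24 that leaves room for a small difference in either direction.

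The opposite differences of the 2 stimulatory receptors can be read within each library. The ratio of Adora2a to Adora2b FPKM was 1.13, 1.34 and 1.59 in the Sham libraries, 2.50, 3.36 and 2.82 after CPIP alone and 1.80, 2.77 and 2.35 after CPIP with EA. All ratios of injured rats exceeded those of Sham, and those of CPIP+EA overlapped with CPIP. With Adora2a above and Adora2b below Sham in every injured library, the separation of the ratio from Sham follows and is no further result. The ratio was formed after the values were seen, so no test is given for it.

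**Figure D3:**
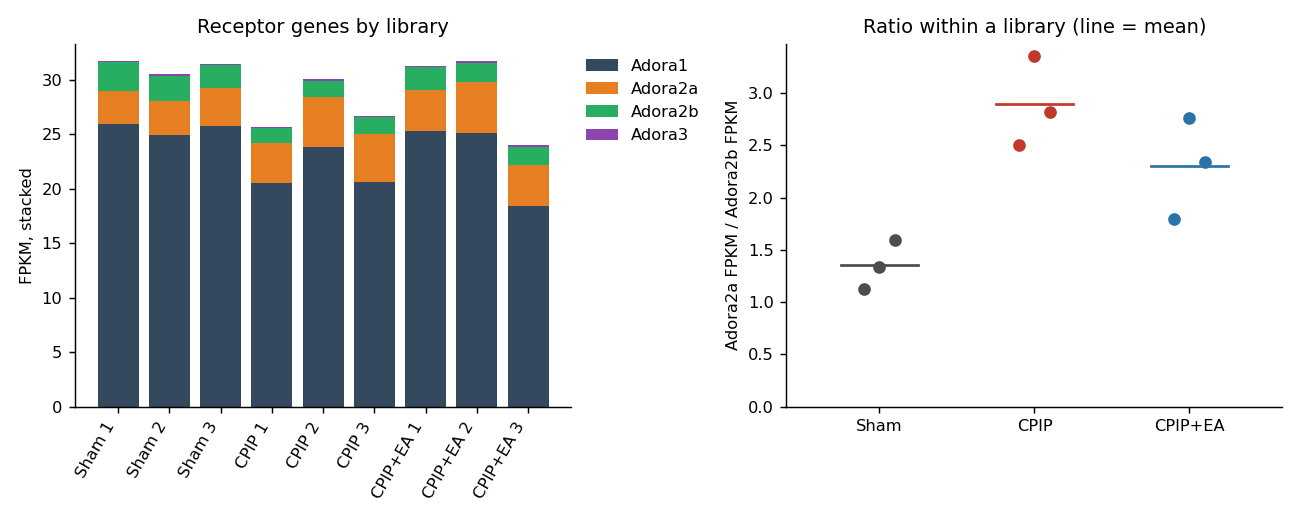
Left, FPKM of the 4 receptor genes stacked for each of the 9 libraries; right, the Adora2a to Adora2b ratio within each library, with the group mean as a line. Adora1 makes up most of every bar, and the ratio is between 1.13 and 1.59 in Sham and between 1.80 and 3.36 in the other 6 libraries.

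Adora1, the inhibitory receptor with the known tie to acupuncture analgesia, was by far the most abundant receptor transcript. It took 76.6 to 82.0% of the summed FPKM of the 4 receptors in every library. Adora1 was at 25.99, 24.98 and 25.77 FPKM in the Sham libraries, 20.56, 23.80 and 20.63 after CPIP alone and 25.33, 25.14 and 18.41 after CPIP with EA. The 3 CPIP libraries lay below the 3 Sham libraries. In CPIP+EA, replicates 1 and 2 were within the Sham range and replicate 3, the library rich in blood markers, had the lowest value of all 9. CPIP stood against Sham at a log2 fold change of -0.24 (SE 0.12, 95% interval -0.51 to 0.030, unadjusted limma p 0.0751, limma adjusted p 0.663, 0.201 to 0.926 over the alternatives), and of -0.31 without CPIP replicate 2. Its unadjusted p was under 0.05 in 3 of the 20 alternatives. EA on top of CPIP gave 0.071 (95% interval -0.20 to 0.34, limma adjusted p 0.996, 0.649 to 1 over the alternatives). Without CPIP+EA replicate 3 this Adora1 value was 0.22 and without CPIP+EA replicate 1 it was -0.0062, so single libraries decide its size and direction. For CPIP+EA over Sham, Adora1 had a log2 fold change of -0.17 (95% interval -0.43 to 0.10, limma adjusted p 0.632, 0.454 to 0.945 over the alternatives), which was -0.019 without CPIP+EA replicate 3. The summed neuron markers of CPIP+EA replicate 3 were 6306 FPKM, the lowest of its group and within the Sham range. In such bulk tissue, fewer expressing cells and less RNA per cell cannot be told apart.

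Adora3, the other inhibitory receptor and one known from mast cells and other immune cells, was barely detected. Its FPKM was 0.10, 0.24 and 0.11 in the Sham libraries, 0.07, 0.20 and 0.12 after CPIP alone and 0.14, 0.17 and 0.21 after CPIP with EA, and the groups overlapped in all 3 comparisons. The table carries a second entry, LOC100911796, which RefSeq (rat assembly GRCr8) names Adora3. It stood at 0.06, 0.24 and 0.06 FPKM in the Sham libraries, 0.07, 0.14 and 0.39 after CPIP alone and 0.09, 0.17 and 0.55 after CPIP with EA. Reads of this receptor could therefore have been divided between both entries by the authors' counting. With both summed, the log2 fold change (CPIP over Sham) was 0.11 in place of -0.044, with limma adjusted p of 0.971 and 0.977, so no direction can be given for Adora3.

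Among non-overlapping groups, Adora1, Adora2a and Adora2b made 3 of 8 between CPIP and Sham, where 15.9% of all genes did not overlap. Adora2b was 1 of 8 between CPIP+EA and CPIP, against 8.23% of all genes. Adora2a and Adora2b made 2 of 8 between CPIP+EA and Sham, against 16.2%. The enzymes and the transporter overlapped in every comparison.

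Nt5e, which makes adenosine from AMP at the cell surface, was at 5.55, 5.32 and 3.00 FPKM in the Sham libraries, 4.85, 4.80 and 4.79 after CPIP alone and 5.57, 4.10 and 4.71 after CPIP with EA. Sham replicate 3 was the lowest of all libraries, and without it the log2 fold change between CPIP and Sham went from 0.095 (95% interval -0.36 to 0.55) to -0.16. Ada, which destroys adenosine by deamination, was at 5.21, 3.76 and 5.01 FPKM in the Sham libraries, 4.32, 5.16 and 5.09 after CPIP alone and 4.64, 5.71 and 4.58 after CPIP with EA. Sham replicate 2 was the lowest, and without it the log2 fold change of Ada between CPIP and Sham went from 0.062 to -0.070. Its groups overlapped, and the 95% interval of its log2 fold change was -0.25 to 0.38 between CPIP and Sham and -0.28 to 0.34 between CPIP+EA and CPIP.

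Adk, which returns adenosine to the nucleotide pool, had the narrowest intervals. It stood at 57.73, 56.75 and 54.64 FPKM in the Sham libraries, 54.92, 53.86 and 58.31 after CPIP alone and 56.64, 54.98 and 48.50 after CPIP with EA. Its log2 fold change was -0.018 between CPIP and Sham (95% interval -0.17 to 0.14) and -0.063 between CPIP+EA and CPIP (95% interval -0.22 to 0.090), so both intervals lay inside 1.5-fold. The lowest value was again that of CPIP+EA replicate 3, and without it the latter log2 fold change was 0.0036. Per length, Adk exceeded Ada by 9.63 to 15.1 times in single libraries. Slc29a1, the equilibrative transporter, was at 5.60, 5.64 and 6.81 FPKM in the Sham libraries, 6.09, 5.59 and 6.20 after CPIP alone and 5.76, 5.32 and 5.18 after CPIP with EA. Its log2 fold change between CPIP+EA and CPIP was -0.13 (95% interval -0.34 to 0.093, limma adjusted p 0.996, 0.804 to 1 over the alternatives).

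The rest of the pathway was followed in 5 lists with 56 genes in the table, of which 53 passed the filter on low values. None of the 53 passed the threshold in any comparison. At an unadjusted limma p under 0.05, 5 were higher and 4 lower between CPIP and Sham, 0 differed between CPIP+EA and CPIP, and 5 were higher and 5 lower between CPIP+EA and Sham. These are 9, 0 and 10 of 53, to be read against the 8.66%, 4.29% and 12.2% of all genes given above.

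**Figure D4:**
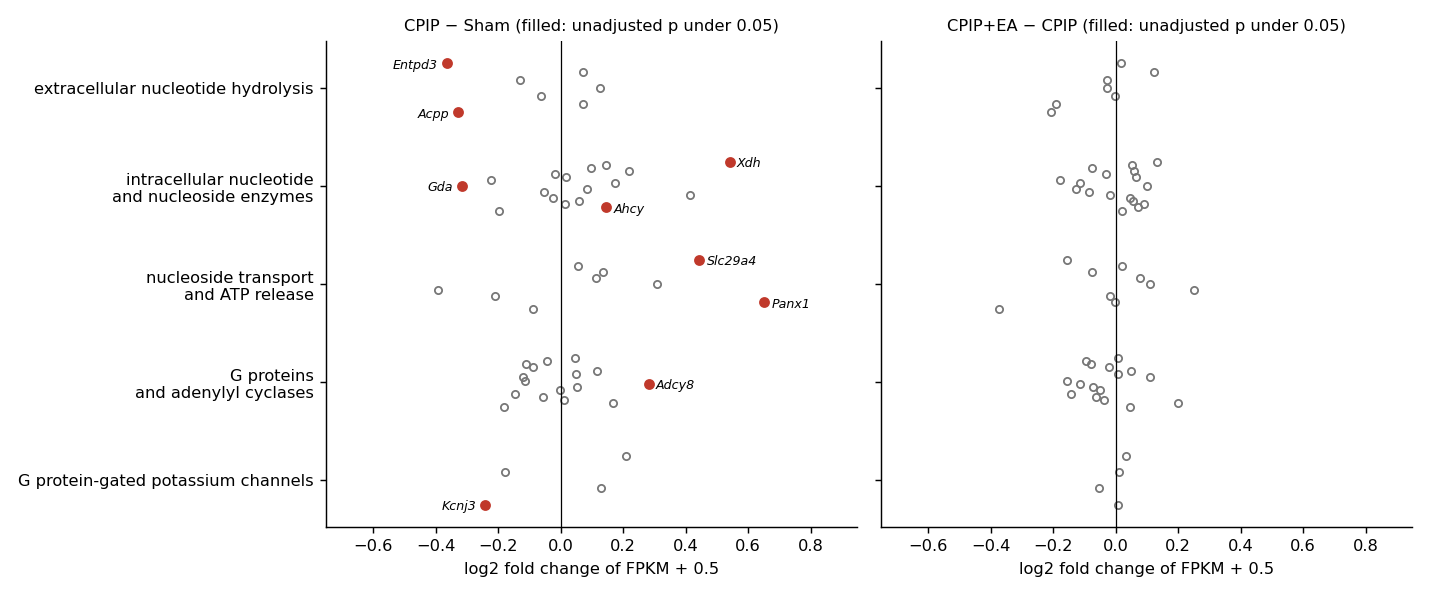
Log2 fold changes of the 53 pathway genes tested, by list, between CPIP and Sham (left) and between CPIP+EA and CPIP (right), on the log2(FPKM + 0.5) scale; filled, named points have an unadjusted limma p under 0.05. The left panel holds 9 filled points and the right panel 0.

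Upstream of adenosine, Panx1, a channel that lets ATP out of cells, came closest to the threshold. It was at 5.50, 5.75 and 5.09 FPKM in the Sham libraries, 8.56, 9.10 and 8.86 after CPIP alone and 9.71, 9.28 and 7.63 after CPIP with EA, so every injured library was above every Sham library. The log2 fold change of Panx1 was 0.65 between CPIP and Sham (SE 0.098, limma adjusted p 0.0198, 0.00568 to 0.0935 over the alternatives) and 0.65 between CPIP+EA and Sham (limma adjusted p 0.0137, 0.00442 to 0.0656). It passed in both only in the fit without CPIP+EA replicate 3. With EA on top of CPIP, Panx1 had a log2 fold change of -0.0014 (SE 0.098). Its relative Panx2, the most abundant gene of the transport and release list, was lower in every CPIP than in every Sham library, with an unadjusted limma p of 0.0821 and means of 29.7, 25.5 and 25.4 FPKM in Sham, CPIP and CPIP+EA. Slc29a4, a transporter of monoamines that also carries adenosine, had means of 5.68 FPKM in Sham and 7.89 in CPIP, a log2 fold change of 0.44 with a limma adjusted p of 0.415 (0.129 to 0.809 over the alternatives).

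Of the 7 ectonucleotidases tested, the 2 with an unadjusted p under 0.05 were lower in CPIP, a count too small to set apart from the 8.66% of all genes. Acpp, the AMP phosphatase of nociceptors, was at 59.71, 61.81 and 55.43 FPKM in the Sham libraries, 43.61, 47.71 and 49.46 after CPIP alone and 50.03, 38.91 and 34.15 after CPIP with EA. All 6 libraries of injured rats were below all Sham libraries, and CPIP and CPIP+EA overlapped. The log2 fold change of Acpp was -0.33 between CPIP and Sham (SE 0.12, limma adjusted p 0.468, 0.118 to 0.831 over the alternatives) and -0.53 between CPIP+EA and Sham (limma adjusted p 0.0871, 0.0115 to 0.28). The latter was -0.41 without CPIP+EA replicate 3. In the same comparison the 10 neuron markers had a median log2 fold change of -0.090, with Tubb3 (0.46) and Prph (0.36) higher and Rbfox3 (-0.55) and Scn10a (-0.59) lower at an unadjusted limma p under 0.05. Their part in the Acpp difference was not tested. In each library Acpp exceeded Nt5e, by 7.25 to 18.5 times per length. Entpd3, which removes phosphates from ATP and ADP, was at 24.96, 21.77 and 20.82 FPKM in the Sham libraries, 16.02, 18.10 and 17.99 after CPIP alone and 19.25, 17.57 and 16.03 after CPIP with EA. Its log2 fold change was -0.36 between CPIP and Sham (SE 0.093, limma adjusted p 0.188, 0.123 to 0.522 over the alternatives) and 0.018 between CPIP+EA and CPIP. Entpd2, a glial enzyme, had the highest mean of the list over the 9 libraries (55.8 FPKM, against 49.0 for Acpp), though Acpp was higher on average in Sham. Entpd2 had means of 52.5, 54.7 and 60.1 FPKM in Sham, CPIP and CPIP+EA.

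Downstream of Ada, Xdh, the enzyme that oxidises hypoxanthine to uric acid, was at 5.98, 6.27 and 5.14 FPKM in the Sham libraries, 8.03, 8.21 and 9.77 after CPIP alone and 8.44, 9.17 and 11.12 after CPIP with EA. Again all injured libraries were above Sham. Its log2 fold change was 0.54 between CPIP and Sham (SE 0.12, limma adjusted p 0.12, 0.0628 to 0.374 over the alternatives) and 0.67 between CPIP+EA and Sham (limma adjusted p 0.0358, 0.0288 to 0.127). Smaller differences between CPIP and Sham at an unadjusted p under 0.05 were those of Ahcy, which splits adenosylhomocysteine into adenosine and homocysteine (log2 fold change 0.15, limma adjusted p 0.502), and of the guanine deaminase Gda (-0.32, limma adjusted p 0.574). Gda was at -0.20 without Sham replicate 2, and its unadjusted p was under 0.05 in 10 of the 20 alternatives. Nt5c3b had such a p only between CPIP+EA and Sham (log2 fold change 0.28, limma adjusted p 0.326), and its value was 0.15 without CPIP+EA replicate 2. Ahcyl1, the most abundant gene on the list of intracellular enzymes and their relatives, had means of 58.0, 58.6 and 62.4 FPKM in Sham, CPIP and CPIP+EA.

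On the receptor side, the 16 G proteins and adenylyl cyclases had a median log2 fold change of -0.023 between CPIP and Sham. Gnas, the stimulatory G protein, was the most abundant, with means of 841, 867 and 876 FPKM in Sham, CPIP and CPIP+EA. Between CPIP and Sham, 1 of the 16 had an unadjusted p under 0.05 (8.66% of all genes), the cyclase Adcy8 (log2 fold change 0.28, limma adjusted p 0.535), which was at 0.18 without Sham replicate 3. The count for CPIP+EA over Sham was 3 of 16, near the 12.2% of all genes, with Adcy2 (0.37, limma adjusted p 0.128), Adcy5 (-0.29, limma adjusted p 0.378) and Adcy9 (-0.27, limma adjusted p 0.408). Adcy5 was at -0.18 without CPIP+EA replicate 3 and Adcy9 at -0.18 without CPIP+EA replicate 2, and their unadjusted p was under 0.05 in 11 and 7 of the 20 alternatives. Of the 4 potassium channel subunits that inhibitory G proteins open, Kcnj3 was the most abundant. It was at 12.84, 10.01 and 10.64 FPKM in the Sham libraries, 9.37, 8.70 and 9.93 after CPIP alone and 9.31, 9.40 and 9.38 after CPIP with EA, a log2 fold change of -0.24 between CPIP and Sham (SE 0.096, limma adjusted p 0.509, 0.434 to 0.809 over the alternatives). Without Sham replicate 1, its highest library, Kcnj3 was at -0.14, and its unadjusted p was under 0.05 in 16 of the 20 alternatives.

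For the 7 genes with a mean of at least 1 FPKM, the genes whose log2 values ran most alike over the 9 libraries were found among 13913 others. The 9 points fall into the same 3 groups for every gene, the libraries differ in blood marker content, and each partner is the highest of many, so these coefficients are descriptions only. Adora1 ran closest to Anxa5 (Pearson r 0.986, Spearman rho 0.933) and Drc1 (r 0.985), and Adora2a to Hey1 (r 0.981, rho 0.967) and Vash2 (r 0.966). Adora2b ran closest to Ckmt1b (r 0.972, rho 0.967) and Cntn4 (r 0.960). Without the 2 libraries farthest from the median of the receptor, r was 0.963 for Anxa5, 0.972 for Hey1 and 0.935 for Ckmt1b. The partners were Golga7b (r 0.980) and Bace1 (r 0.968) for Adk, Slc35d2 (r 0.969) and B3galt4 (r 0.947) for Slc29a1, Tlx2 (r 0.928) and Trappc6b (r 0.910) for Ada, and Farsb (r 0.919) for Nt5e. Without the 2 libraries farthest from the median of Nt5e, r fell to 0.457 for Farsb, which rests on them. The same step for Ada lowered r to 0.793 for Tlx2 and 0.651 for Trappc6b. For the partners of Adk and Slc29a1 it gave 0.875 to 0.970.

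Adora2b and Nt5e are known as genes that hypoxia-inducible factors switch on, and the injury here is an ischemia of the paw, so the promoters are shown for these and for Adora1. RefSeq sequences of GRCr8 were matched by gene identifier for 6 of the 8 genes, and each runs from 250 bases before the start site through 50 bases from it on. The build used for the FPKM values is not given in the sources used here. The core of the hypoxia response element, ACGTG or GCGTG, was searched on both strands and is in capitals below, which shows whether its letters are there and nothing about binding. It was found in 41.6% of all 33469 promoters of this length.

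Adora2b (chr10:47439462-47439761, GRCr8, + strand): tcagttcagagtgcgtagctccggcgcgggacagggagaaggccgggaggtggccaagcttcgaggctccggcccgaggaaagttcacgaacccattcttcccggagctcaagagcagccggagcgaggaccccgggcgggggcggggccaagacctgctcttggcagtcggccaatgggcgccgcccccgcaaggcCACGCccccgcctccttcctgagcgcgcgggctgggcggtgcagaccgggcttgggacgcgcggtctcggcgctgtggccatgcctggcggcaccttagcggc

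Nt5e (chr8:98150675-98150974, GRCr8, + strand): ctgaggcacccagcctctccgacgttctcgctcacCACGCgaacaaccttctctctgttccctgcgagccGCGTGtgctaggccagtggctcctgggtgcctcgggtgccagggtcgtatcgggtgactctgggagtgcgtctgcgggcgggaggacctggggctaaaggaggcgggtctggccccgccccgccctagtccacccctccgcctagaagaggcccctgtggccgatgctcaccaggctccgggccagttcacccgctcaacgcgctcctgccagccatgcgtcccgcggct

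Adora1 (chr13:48246782-48247081, GRCr8, - strand): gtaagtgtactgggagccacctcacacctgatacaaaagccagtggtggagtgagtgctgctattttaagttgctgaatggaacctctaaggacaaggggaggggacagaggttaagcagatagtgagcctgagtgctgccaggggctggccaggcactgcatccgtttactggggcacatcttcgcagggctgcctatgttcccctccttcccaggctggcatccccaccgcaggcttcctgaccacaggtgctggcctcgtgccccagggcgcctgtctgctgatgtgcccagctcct

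The Adora2b promoter held 1 match, which began 53 bases before the start site, and that of Nt5e held 2, at 215 and 180 bases before it. The Ada promoter held 1, and those of Adora1, Adk and Slc29a1 held 0. The cAMP response core TGACG, searched on both strands, was in none of the 6 and in 21.2% of all promoters. The Adora2b and Adora1 promoters also differed in composition, with 72.0 and 59.0% G and C and 33 and 5 CG dinucleotides. The genes with matches, Adora2b, Nt5e and Ada, had log2 fold changes between CPIP and Sham of -0.54, 0.095 and 0.062, and the genes without, Adora1, Adk and Slc29a1, had -0.24, -0.018 and -0.0087.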

How the data were processed

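RNA-Seq of 9 DRG libraries was used, 3 each of Sham, CPIP and CPIP+EA, grouped by the repository's sample names. The authors sequenced single-end reads of 50 bases, filtered them with SOAPnuke and deposited FPKM per gene and library. Aligner, counting tool and genome build are not given in the sources used here. The deposited log2 ratios, P-values and Q-values of group pairs were not used.

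A pseudocount of 0.5 was added before taking log2, which understates changes of low genes. Genes averaging 0.1 FPKM or more (17187) entered 1 limma fit (version 3.58.1, R 4.3.3, eBayes with a trend) of the 9 libraries with no covariate. Tests were two-sided, with Benjamini-Hochberg adjustment over these genes. The same fit was also run on simulated data, and the outcome of that run is not used here. Alternatives concerned the pseudocount (0.1 or 1), the filter (none, or 1 FPKM on average), scaling (quantiles, TPM or medians), the variance trend (absent or robust), a block for replicate numbers, fits restricted to the pair of groups, and leaving out each library. Summing both Adora3 entries was added after the values were seen. The p-values measure only the spread between these libraries within groups, pooled over the 3 groups.

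The 8 genes and the pathway and marker lists were chosen with earlier results of these data known. Named were all 8 genes, pathway genes with an unadjusted p under 0.05 in any comparison, the most abundant gene of each list, and for members averaging 1 FPKM or more the 2 genes with the highest Pearson r (Python 3.11.15, pandas 2.3.3). A gene among these last genes is not reported here.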

Additional observations from a re-analysis of the deposited data

How the results depend on the processing

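In all 20 alternatives, 0 of the 8 adenosine genes passed the threshold in any comparison. Of the 53 pathway genes 0 passed, except without CPIP+EA replicate 3, where 1 (Panx1) passed in both comparisons with Sham, so that this count was 0 to 1 over the libraries left out. Over all genes, the 61 calls for CPIP over Sham became 26 with the replicate number as a block and 30 to 62 with a library left out. The 83 calls for CPIP+EA over Sham became 42 with the replicate block, 51 in a fit of these groups alone and 35 to 82 with a library left out. The 0 calls for CPIP+EA over CPIP stayed 0 with the block and became 1 in a fit of these groups alone and 0 to 2 with a library left out. Same-numbered libraries were not shown to be paired: their deviations from the group means correlated at -0.257 to 0.34, over 0.1 in 2 of 9 pairs.

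Directions that turned belonged to small differences. With a library left out, log2 fold changes of CPIP over Sham ran from -0.122 to 0.0533 for Adora3, -0.159 to 0.235 for Nt5e, -0.0702 to 0.141 for Ada, -0.0509 to 0.00585 for Adk and -0.0538 to 0.0768 for Slc29a1. For CPIP+EA over CPIP they ran from -0.00615 to 0.219 for Adora1, -0.138 to 0.0292 for Adora2a, -0.118 to 0.0819 for Nt5e, -0.0643 to 0.0806 for Ada and -0.107 to 0.00356 for Adk. For CPIP+EA over Sham they ran from -0.174 to 0.221 for Nt5e and -0.0407 to 0.171 for Ada. With both entries summed, Adora3 was at 0.108 for CPIP over Sham. Adora2a and Adora2b kept their direction against Sham throughout. Adora3 was not tested with the filter of 1 FPKM. The reads behind each value are unknown, so for low genes such as Adora3 counting error could not be set apart from the spread between libraries.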
